A study of Mus musculus with 4 samples.

Results

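Gene expression was compared between Myc-CaP cells with a knockdown of focal adhesion kinase (FAK, gene Ptk2) and Myc-CaP cells with a control hairpin, both in norepinephrine. The comparison uses 2 of the 4 RNA-seq libraries of the series, chosen by their labels, with 1 library on each side. Myc-CaP is a mouse prostate cancer line from an FVB animal of the Hi-Myc transgenic strain, so both sides carry that transgene. One line was stably transfected with short hairpin RNAs against FAK (shFAK) and the other with a negative control hairpin (shNC), and both were kept for 24 h in medium with serum and 10 µM norepinephrine. The other 2 libraries are the same lines in vehicle and are used here as a separate measurement of the hairpin ratio without norepinephrine. The labels do not say which hairpin sequences were used or whether a line was 1 clone. An effect of losing FAK, a difference between the lines from another origin, and a difference between cultures or library preparations cannot be told apart with 1 library a side.

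FAK is a tyrosine kinase in the cytoplasm that is recruited to focal adhesions, the sites where integrins bind the extracellular matrix. There it is phosphorylated, binds Src-family kinases and the scaffold proteins paxillin and p130Cas, and passes signals from the matrix to the actin cytoskeleton, to cell migration and to survival pathways. Norepinephrine is the transmitter of sympathetic nerves, which run through the prostate, and acts through adrenergic receptors, many of which raise or lower cyclic AMP. The series set the hairpins and the hormone side by side, and the pair described here asks how the FAK line differed from its control while the hormone was present.

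The 4 libraries held 23410486 to 29948640 read counts, 27598343 in shNC with norepinephrine and 23410486 in shFAK with norepinephrine. Levels are given as raw counts or as CPM, which are counts scaled by the effective size of the library. Ratios are shFAK over shNC on the log2 scale, with a prior count of 2 added, so ratios of genes with few counts are understated. The range after a ratio is its exact 99% Clopper-Pearson counting interval, which covers the counting of reads and not the spread between cultures. Of 52636 genes in the table, 12162 had at least 1 CPM in either library of the pair, here scaled by the total count of the library, and 10753 of these were protein-coding. The 2-fold rule asked for a log2 ratio of 1 or more in size, with an interval that left out 0, and the 1.5-fold rule was set in the same way.

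Ptk2 (mm10 chromosome 15, 73205105 to 73423191, minus strand), the targeted gene, had 3158 counts in shNC and 1248 in shFAK under norepinephrine. Its log2 ratio was -1.19 (-1.31 to -1.06), beside -1.29 under vehicle, so the label of the shFAK library holds for its target in both treatments. In a bulk sample, fewer cells with a transcript and less of it per cell cannot be told apart. Ptk2b, the related kinase PYK2, had 192 counts in shNC and 276 in shFAK, a log2 ratio of 0.67 (0.32 to 1.03).

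Markers of prostate epithelium were present on both sides. The claudin Cldn3 was at 490.2 CPM in shNC and 359.4 CPM in shFAK, the luminal keratin Krt8 at 6.19 and 2.00 CPM, and the basal keratin Krt15 at 9.53 and 12.3 CPM. Of 12 luminal markers 7 reached the level filter, and of 9 basal markers 5 did. The luminal markers lay on both sides of 0, with 3 log2 ratios above it and 4 below, from -1.6 to 0.7 with a median of -0.09. All 5 basal markers had ratios above 0, but the intervals of Itgb4 (-0.12 to 1.22) and Ngfr (-0.71 to 1.09) held 0. With the trend of the ratio with gene length taken off, Dst was at -0.004 and the median of the basal list at 0.37. Under vehicle Krt15 and Ngfr were at -0.40 and -0.20, and the list median was 0.27. Other cell types were scarcely represented. None of 10 germ cell markers, 1 of 10 endothelial markers (Eng), 2 of 10 fibroblast markers (Pdgfra and Col1a1) and 3 of 19 leukocyte markers (Tigit, Cd14 and Cd68) reached the filter, while 8 leukocyte and 5 fibroblast markers had no counts in either library. The summed level of the leukocyte list was 53.2 CPM in shNC and 35.6 CPM in shFAK, most of it Tigit and Cd14, and that of the fibroblast list was 8.06 and 14.2 CPM, most of it Pdgfra. Of 10 muscle markers 3 were kept (Acta1, Acta2 and Myocd) and of 13 markers of neurons and glia 4 were, with summed levels of 35.3 and 48.7 CPM and of 96.8 and 107 CPM in shNC and shFAK. Most of the last sum was Rbfox3, a neuronal splicing factor, at 76.8 and 82.6 CPM.

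More genes were higher than lower in the shFAK library. The 2-fold rule was met by 319 genes that were higher, 2.62% of all genes kept, and by 78 that were lower, 0.641%. The 1.5-fold rule was met by 998 genes that were higher (8.21%) and 389 that were lower (3.2%). The median log2 ratio of all genes kept was 0.02. Both directions were called most often at low levels. Of 1205 genes with a mean below 2 CPM, 178 were higher (14.8%) and 33 lower, and of 2389 genes at 100 CPM or more 8 were higher (0.335%) and 2 lower. The level filter itself bears on these counts, since 176 of the 319 higher genes reached it in the shFAK library alone and 28 of the 78 lower genes in the shNC library alone. Such genes were kept through the library in which they are high. Of 446 genes kept through shFAK alone 176 met the 2-fold rule as higher, and of 11563 that reached the filter in both libraries 143 did. Scaling by library size alone, without TMM, moved the median of all genes to 0.11, and the share of higher genes among those that met the 2-fold rule went from 80.4% to 86.5%.

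**Figure D1:**
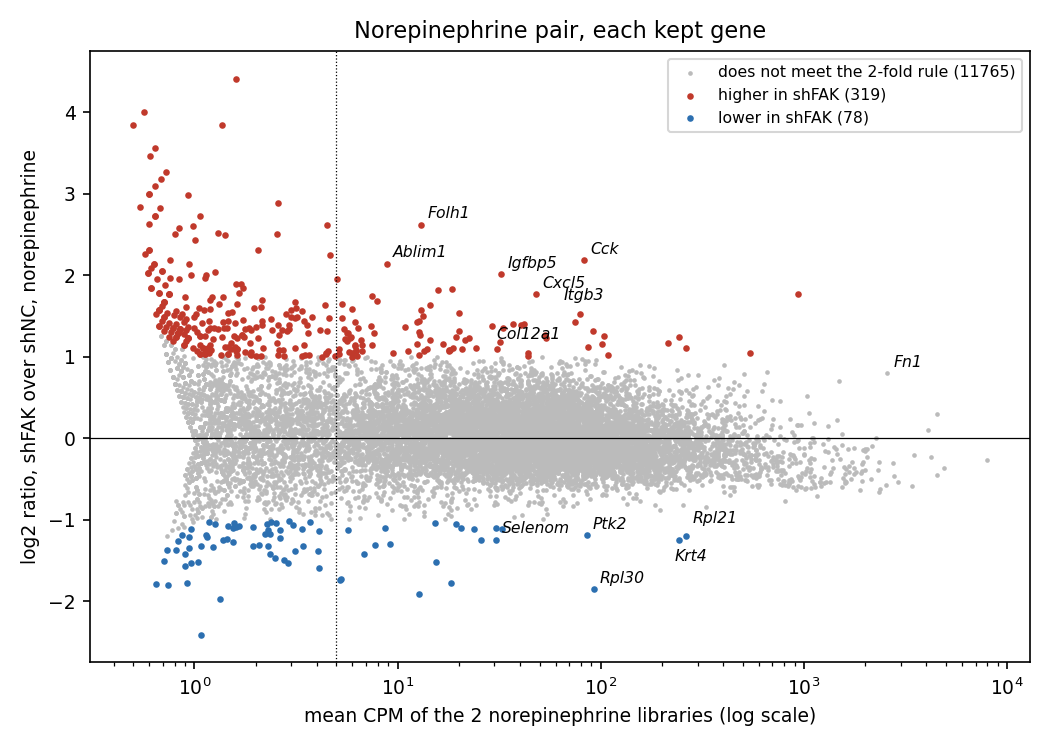
Each point is 1 of the 12162 kept genes, with the mean CPM of the 2 norepinephrine libraries on a log axis and the log2 ratio of shFAK over shNC on the vertical axis. Red points are the 319 genes that met the 2-fold rule as higher and blue points the 78 that met it as lower, the dotted line marks 5 CPM, and most red points lie to the left of it.

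At a mean of at least 5 CPM, 80 protein-coding genes met the 2-fold rule as higher, and the 15 with the highest ratios are named here. Folh1 (chromosome 7, 86718977 to 86775943, minus strand), the mouse form of prostate-specific membrane antigen, had 96 counts in shNC and 541 in shFAK. Its log2 ratio of 2.62 (2.24 to 3.08) was the highest of these genes. Cck (chromosome 9, 121489824 to 121495694, minus strand), the gene of the peptide hormone cholecystokinin, had 791 and 3251 counts, a log2 ratio of 2.19 (2.04 to 2.34). Ablim1 (chromosome 19, 57032733 to 57314919, minus strand), an actin-binding LIM protein, had 86 and 348 counts, a log2 ratio of 2.14 (1.72 to 2.64). For each of these 3 genes the vehicle libraries showed the same order, with 70 counts in shNC and 607 in shFAK for Folh1, 482 and 2781 for Cck, and 96 and 412 for Ablim1.

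Several of the others encode secreted proteins. Igfbp5, which binds insulin-like growth factors, had 342 counts in shNC and 1250 in shFAK, a log2 ratio of 2.01 (1.79 to 2.25). Slpi, an inhibitor of leukocyte proteases, had 185 and 595 counts, a log2 ratio of 1.82 (1.52 to 2.16). The neutrophil-attracting chemokine Cxcl5 had 578 and 1779 counts, a log2 ratio of 1.77 (1.59 to 1.95). Fbln2, a fibulin of elastic fibres and basement membranes, had 99 and 291 counts, Adamts9, a protease that cleaves proteoglycans, 272 and 714, and Sned1, a matrix glycoprotein, 68 and 195. The log2 ratios of Fbln2, Sned1 and Adamts9 were 1.69, 1.64 and 1.54. Sned1 and Adamts9 overlap annotated antisense genes, whose reads cannot be separated in a library that does not mark strand.

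Abca1, Atp7a and Xdh encode transporters and an enzyme. Abca1, which exports cholesterol from the cell, had 217 counts in shNC and 700 in shFAK, a log2 ratio of 1.83 (1.55 to 2.14). The copper transporter Atp7a had 185 and 474 counts, and Xdh, the xanthine oxidoreductase of purine breakdown, 175 and 472. Itgb3, the integrin beta subunit that pairs with Itgav in a receptor for vitronectin and fibronectin, had 1089 and 2818 counts, a log2 ratio of 1.52 (1.39 to 1.66). The zinc finger gene Zfp871 and the membrane protein gene Prrg4 completed the 15, at log2 ratios of 1.63 and 1.44. Atp7a and Prrg4 were the 2 of the 15 whose vehicle ratio was below 1, at 0.68 and 0.80. In both, shNC went from 473 and 383 counts in vehicle to 185 and 183 in norepinephrine, and the shFAK counts went from 681 and 597 to 474 and 449.

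Only 9 protein-coding genes at a mean of at least 5 CPM met the 2-fold rule as lower, and Ptk2 was 1 of them. Krt4, a keratin of stratified epithelium, had 9073 counts in shNC and 3424 in shFAK, a log2 ratio of -1.25 (-1.33 to -1.18). Selenom, a selenoprotein of the endoplasmic reticulum, had 1146 and 434 counts, a log2 ratio of -1.25 (-1.46 to -1.04). Tigit, an inhibitory receptor best known from T and NK cells, had 867 and 360 counts, a log2 ratio of -1.11 (-1.36 to -0.88). M1ap, named for a role in meiosis, had 1105 and 464 counts, and Mgp, the matrix Gla protein that inhibits calcification, 551 and 240. With the trend of the ratio with gene length taken off, M1ap was at -0.95, Tigit at -0.80 and Mgp at -0.76, short of the 2-fold rule. The other 3 lower genes were Rpl30, Rpl21 and mt-Co3, which have near-identical annotated copies and are described with the vehicle pair.

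**Figure D2:**
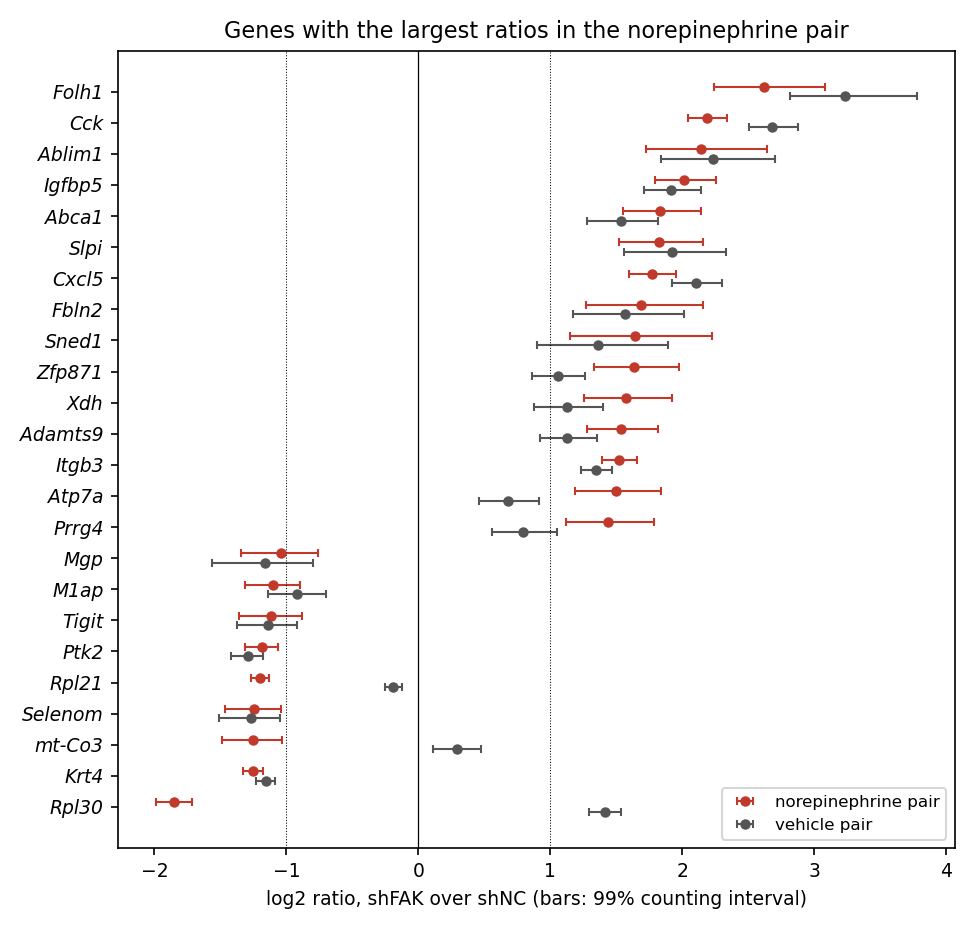
Each row is 1 of the 15 higher and 9 lower protein-coding genes named for the norepinephrine pair, with its log2 ratio of shFAK over shNC and 99% counting interval in the norepinephrine pair (red) and the vehicle pair (grey). The intervals of the pairs lie close together for most genes, while Rpl30 stands at -1.85 in norepinephrine and 1.41 in vehicle.

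Gene lists were described by the number of members that met each rule and by their median ratio, beside the same values for all genes, and no test was made on a list. Over all genes kept, 2.62% met the 2-fold rule as higher and 0.641% as lower, and 8.21% and 3.2% met the 1.5-fold rule. The ratio also depended on gene length, as described further on, so the medians of many lists are given again with that trend taken off. With it taken off, 738 genes met the 1.5-fold rule as higher (6.07%) and 197 as lower (1.62%) over all genes.

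The partners of FAK in the adhesion complex differed little between the libraries. Of 28 kept genes of the FAK signalling complex, Ptk2 was the 1 that met the 2-fold rule, and the median was 0.09, and 0.01 with the length trend taken off. Ptk2b, the scaffold Nedd9 and the kinase Rock1 met the 1.5-fold rule as higher at log2 ratios of 0.67, 0.66 and 0.60, and none of the 3 met it with the trend taken off. Of 29 kept adhesion plaque genes 2 were higher by the 2-fold rule, Kank4 and Lims2, beside 2.62% of all genes kept. Kank4, which encodes a regulator of actin at adhesions, had 595 counts in shNC and 1402 in shFAK, a log2 ratio of 1.38 (1.20 to 1.57). Vinculin (Vcl) had 2696 and 3801 counts, a log2 ratio of 0.65, and 0.45 with the trend taken off. Lims2 reached the level filter in the shFAK library alone. The plaque list had a median of 0.30, and 0.10 with the trend taken off.

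Among receptors for the matrix, 15 of 25 integrin genes were kept, with a median of 0.49 and of 0.27 with the length trend taken off. Besides Itgb3, the alpha subunit Itgav had 2374 counts in shNC and 3453 in shFAK, a log2 ratio of 0.69 (0.59 to 0.79), and 0.42 with the trend taken off, short of the 1.5-fold rule. Itga7, an alpha subunit for laminin, was at 0.83 (0.40 to 1.28). Itga2, which binds collagen, met the 2-fold rule on 5 and 25 counts and reached the level filter in shFAK alone, and this gene lies outside the naming rule and was chosen after its values were seen. The 4 genes of the list below 0 lay between -0.42 (Itga3) and -0.05 (Itgb5), and none of them met the 1.5-fold rule.

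Collagens were the list with the highest median among those with 10 or more kept members. All 12 kept collagen genes, of 33 in the list, had ratios above 0, from 0.02 to 2.26, with a median of 0.90 and of 0.75 with the trend taken off. The 2-fold rule was met as higher by 4 and the 1.5-fold rule by 9, beside 2.62% and 8.21% of all genes kept. With the trend taken off these counts were 3 and 7, and 6.07% of all genes met the 1.5-fold rule as higher. Col5a1, a chain of fibrillar collagen V, had 4453 counts in shNC and 8665 in shFAK, a log2 ratio of 1.11 (1.04 to 1.18), and of 0.90 with the trend taken off, short of the 2-fold rule. Col12a1, a fibril-associated collagen, had 1087 and 2629 counts, a log2 ratio of 1.42 (1.29 to 1.56). The basement membrane chain Col4a2 had 1145 and 1989 counts, at 0.95 (0.81 to 1.09), and Col16a1 had 82 and 144. The other 2 that met the 2-fold rule, Col1a1 with 4 and 24 counts and Col18a1 with 8 and 29, were named after their values were seen. Both reached the level filter in the shFAK library alone, and so were kept because they are high there. Col18a1 was at -0.41 in the vehicle pair. Col4a2 and Col5a1 overlap annotated antisense genes.

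Of 26 kept laminins and matrix glycoproteins, 4 met the 2-fold rule as higher and 1 (Mgp) as lower, beside 2.62% and 0.641% of all genes kept. The 1.5-fold rule was met by 11 and 1, beside 8.21% and 3.2%. Of the 4 higher by the 2-fold rule, Emilin2 and Nid2 reached the level filter in shFAK alone. Both were kept because they are high there. With the trend taken off, 3 met the 2-fold rule as higher and none as lower, and 8 and 1 the 1.5-fold rule. Their median was 0.51, and 0.39 with the trend taken off. The proteoglycan versican (Vcan) had 520 counts in shNC and 1061 in shFAK, a log2 ratio of 1.18 (0.98 to 1.38), and of 0.83 with the trend taken off. Emilin2 and the nidogen Nid2, each at 14 to 65 counts, were at 1.70 and 1.35 under norepinephrine but at 0.10 and -0.01 under vehicle. Chosen after their values were seen, fibronectin (Fn1) had 50151 and 78434 counts, at 0.80 (0.77 to 0.82), and the laminin chain Lamc1 had 2737 and 4412, at 0.84. With the length trend taken off, Fn1 was at 0.50 and no longer met the 1.5-fold rule. Among 24 kept extracellular proteases and inhibitors 4 were higher by the 2-fold rule, beside 2.62% of all genes kept. They were Slpi, Adamts9, Plau and Adamts12. Adamts12 had a ratio of 1.11 that was 0.99 with the trend taken off, and reached the level filter in shFAK alone. Plau, the urokinase-type plasminogen activator, had 43 and 101 counts, a log2 ratio of 1.34 (0.70 to 2.11).

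A part of the genes that answer to interferon or belong to inflammation met the 2-fold rule as higher. These were 6 of 27 kept in the interferon list and 8 of 24 in the cytokine list, beside 2.62% of all genes kept. Of them, 3 and 5 reached the level filter in the shFAK library alone, and 176 of all 446 genes kept in that way met the rule. The promoters of several genes of these lists carry letter motifs of the factors STAT-IRF and NF-kB, and the stretches that hold these motifs are printed here because the genes come from the 2 lists with the most members past the 2-fold rule. The sequences are RefSeq promoter sequences on GRCm38.p6 (mm10), read along the gene's strand from 5′ to 3′, and lie within the 250 bases before the start site. Capitals mark the motif. In Stat2, Igtp, Gbp7 and Isg15 it is the core of the interferon-stimulated response element, GAAA, any 2 bases and GAAA again, and in Cxcl1, Cxcl2 and Nfkbia it is the NF-kB site as it stands in Cxcl1. Both were searched on both strands, so TTTC marks the element read from the other strand.
Stat2, chr10:128270248-128270345, plus strand: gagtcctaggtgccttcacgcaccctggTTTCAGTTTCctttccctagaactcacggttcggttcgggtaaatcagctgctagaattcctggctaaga
Igtp, chr11:58199462-58199555, plus strand: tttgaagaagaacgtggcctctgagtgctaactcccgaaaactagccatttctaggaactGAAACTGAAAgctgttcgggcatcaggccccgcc
Gbp7, chr3:142530223-142530335, plus strand: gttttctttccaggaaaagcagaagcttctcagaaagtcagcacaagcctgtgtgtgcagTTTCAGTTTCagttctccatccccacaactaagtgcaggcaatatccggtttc
Isg15, chr4:156200819-156200956, minus strand: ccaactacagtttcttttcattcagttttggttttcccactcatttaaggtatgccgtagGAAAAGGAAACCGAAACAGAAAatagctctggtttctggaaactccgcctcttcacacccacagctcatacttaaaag
Cxcl1, chr5:90891114-90891243, plus strand: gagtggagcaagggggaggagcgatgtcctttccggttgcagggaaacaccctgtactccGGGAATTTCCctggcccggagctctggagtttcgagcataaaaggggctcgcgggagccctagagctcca
Cxcl2, chr5:90903742-90903871, plus strand: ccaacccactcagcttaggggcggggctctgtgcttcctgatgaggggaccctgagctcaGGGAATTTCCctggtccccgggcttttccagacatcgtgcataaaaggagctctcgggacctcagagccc
Nfkbia, chr12:55492648-55492736, minus strand: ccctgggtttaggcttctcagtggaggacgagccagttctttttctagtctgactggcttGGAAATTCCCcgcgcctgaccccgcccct

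The interferon motif was present in 1131 of 32851 mouse promoters of this length (3.44%) and in 11 of the 23 kept interferon-stimulated genes that had a promoter entry (47.8%). Of these 11, 4 met the 1.5-fold rule as higher (Gbp3, Gbp7, Igtp and Stat2), and Isg15, which holds 3 overlapping matches, did not. The NF-kB letters were taken from Cxcl1 after the ratios were seen, so its own match is given. They were in 29 of all promoters (0.0883%) and in 3 of 19 cytokine list promoters, those of Cxcl1, Cxcl2 and Nfkbia. With the 5th base open, 5 of 19 held the site, and Csf1, Nfkb2 and Nfkbia among them did not meet the 1.5-fold rule as higher. The shorter form GGGANTTCC was in 2 of 19, Nfkb2 and Tnfaip3, and neither met that rule as higher. A match describes these letters in this window and shows no binding.

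Of 27 kept interferon-stimulated genes, 23 had ratios above 0, 6 met the 2-fold rule and 8 the 1.5-fold rule as higher, and none met either as lower. Of the 6, 3 reached the level filter in shFAK alone, Gbp7 among them, and 4 met the 2-fold rule with the length trend taken off. The median was 0.41, and 0.37 with the length trend taken off. Stat2, a transcription factor of the type I interferon pathway, had 306 counts in shNC and 587 in shFAK, a log2 ratio of 1.09 (0.83 to 1.36). Parp14, an ADP-ribosyltransferase, had 111 and 203 counts, at 1.01 (0.58 to 1.48). With the trend taken off, Stat2 was at 0.99 and Parp14 at 0.78, short of the 2-fold rule. The immunity-related GTPase Igtp had 32 and 62 counts and the guanylate-binding protein Gbp7 had 15 and 44. Chosen after their values were seen, Isg15, the ubiquitin-like modifier, had 107 and 81 counts, at -0.25, and the antiviral membrane protein Bst2 had 2702 and 1641, at -0.57. The list therefore held classical interferon targets on both sides of 0. In the antigen-processing list 1 of 18 kept genes met the 2-fold rule, and the median was 0.13. That gene was Psmb8, an immunoproteasome subunit, with 10 and 59 counts, at 2.49 (1.48 to 4.22). Psmb8 reached the level filter in the shFAK library alone and overlaps an annotated antisense gene.

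Of 24 kept cytokines, chemokines and acute-phase genes, 8 met the 2-fold rule as higher and none as lower. Of the 8, 5 reached the level filter in shFAK alone, among them Saa3, C3 and Cxcl2. The list had a median of 0.29 and of 0.33 with the trend taken off. The acute-phase gene Saa3 had 15 counts in shNC and 111 in shFAK, a log2 ratio of 2.88 (2.05 to 4.22). Il33, an alarm cytokine stored in the nucleus, had 541 and 1295 counts, at 1.41 (1.22 to 1.60), and the complement component C3 had 22 and 56 counts, at 1.42 (0.56 to 2.53). Outside the naming rule and chosen after their values were seen, the chemokines Cxcl1 and Cxcl2 had 193 and 366 counts and 25 and 48 counts, at 1.07 and 1.03. Of the genes that carry or restrain NF-kB, Relb was at -0.73 (-1.11 to -0.38), Nfkb2 at -0.31, Nfkb1 at 0.09 and the inhibitor Nfkbia at 0.01, also chosen after their values were seen. The summed level of the leukocyte markers was lower in shFAK, as given above, and their part in these values was not tested.

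Keratins stood on the other side. Of 10 kept keratin genes, 7 had ratios below 0 and 4 met the 1.5-fold rule as lower, beside 3.2% of all genes kept. The list had a median of -0.42, and of -0.26 with the trend taken off. Without the filter on low levels, which brings in keratins with few counts, the median of the list was 0.10. Besides Krt4, Krt7 had 2243 counts in shNC and 1173 in shFAK, at -0.78 (-0.92 to -0.65), Krt13 had 281 and 160, and Krt8 had 165 and 48. Krt13 was at 0.14 in the vehicle pair. Krt8 shares sequence with an annotated copy, so its counts are uncertain. Junction genes differed less: of 20 kept, none met the 2-fold rule and Tjp3, a tight junction scaffold, was the 1 that met the 1.5-fold rule, at 0.88 under norepinephrine and -0.01 under vehicle. Among 10 kept genes of epithelial to mesenchymal transition none met the 2-fold rule. S100a4 was at 0.88 (-0.03 to 1.95), Pdgfra at 0.74, Zeb2 at 0.64 and Twist2 at -0.59. With the trend taken off these were at 1.24, 0.49, 0.23 and -0.53, and S100a4 then met the 2-fold rule. S100a4 had 25 and 43 counts and reached the level filter in shFAK alone.

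In several lists of growth and guidance pathways a part of the members met the 1.5-fold rule as higher, beside 8.21% of all genes kept. These were 5 of 9 kept in the IGF list, 8 of 22 in the Wnt list, 5 of 11 in the ErbB list and 9 of 30 in the guidance list. In each of the IGF, Wnt and guidance lists, 1 of these members reached the level filter in shFAK alone, in the IGF list Irs1. With the length trend taken off these counts were 4, 5, 2 and 5, beside 6.07% of all genes. Insr and Met, at 0.44 and 0.53, then no longer met the rule. All 9 kept IGF-binding protein and IGF receptor genes had ratios above 0, with a median of 0.71, and of 0.44 with the trend taken off. The insulin receptor Insr had 1349 counts in shNC and 2075 in shFAK, at 0.77, the mannose 6-phosphate receptor Igf2r 1066 and 1765, at 0.88, and the adaptor Irs1 17 and 62, at 1.90 (1.01 to 3.17). In the Wnt list Lgr4, a receptor for R-spondins, had 351 and 679 counts, at 1.10 (0.86 to 1.35), and the ligand Wnt4 had 3253 and 5394, at 0.88 (0.80 to 0.96). In the ErbB and MET list the ligand Btc was at 1.10, the receptor Erbb3 at 0.88 and Met at 0.71. Among guidance genes the semaphorin receptor Plxnd1 had 89 and 218 counts, at 1.42 (0.97 to 1.93). None of these 4 lists had a member that met the 1.5-fold rule as lower. The medians of the Wnt, ErbB and guidance lists were 0.45, 0.44 and 0.42, and 0.30, 0.36 and 0.30 with the trend taken off.

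Neuropeptides were mostly below the level filter, with 8 of 29 genes kept, and 9 of the 29 had no counts in either library. Besides Cck, the calcitonin-family genes Calca and Calcb were at 1.00 and 0.91 on 24 and 45 counts and 74 and 127 counts, and were at 0.26 and 0.12 under vehicle. Calca reached the level filter in the shFAK library alone. Npy, neuropeptide Y, had 213 counts in shNC and 289 in shFAK, at 0.59 (0.25 to 0.93). Adrenergic receptors and their signal transducers were close to the median of all genes, with a list median of 0.11. Of 33 kept members 4 met the 1.5-fold rule as higher, beside 8.21% of all genes kept. With the length trend taken off 2 did, beside 6.07% of all genes. The adenylyl cyclases Adcy9 and Adcy6 were at 1.07 and 0.65, and Arrb1, the beta-arrestin that desensitizes these receptors, had 1416 and 2396 counts, at 0.91 (0.78 to 1.04). Immediate early genes lay on both sides of 0. Fos, a subunit of AP-1, was at 1.02 (0.46 to 1.65) on 64 and 119 counts and the nuclear receptor Nr4a1 at -0.83 (-1.11 to -0.56) on 571 and 289 counts, with a list median of -0.19 over 34 genes. Of 16 kept clock genes, 1 met the 1.5-fold rule as higher, the nuclear receptor Rora at 1.31 and at 0.76 under vehicle, and 3 as lower. These were the output genes Dbp, Tef and Ciart, at -0.84, -0.81 and -0.72, and at 0.02, -0.82 and -0.80 under vehicle.

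Nearly all genes of the housekeeping lists had ratios below 0. All 31 proteasome subunits, 77 of 78 cytosolic ribosomal proteins, 76 of 77 mitochondrial ribosomal proteins and 75 of 76 nuclear-encoded subunits of the respiratory chain had ratios below 0, with medians of -0.33, -0.52, -0.35 and -0.34. Of the cytosolic ribosomal proteins, 20 met the 1.5-fold rule as lower, beside 3.2% of all genes kept. An example was Rpl36, with 38365 counts in shNC and 21045 in shFAK, at -0.72 (-0.75 to -0.68). With the length trend taken off, the medians were -0.21, -0.30, -0.19 and -0.12. Then 6 cytosolic ribosomal proteins met the rule as lower and 1 as higher, beside 1.62% and 6.07% of all genes. These are short genes, with a median length of 1754.5 bases for the cytosolic ribosomal proteins against 4012.5 for all genes kept, and 71 of the 78 have near-identical annotated copies. The few members without such a copy had a median of -0.56, beside -0.52 for the whole list. The part of copies in these ratios was not tested.

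Other lists of growth and metabolism were also a little below 0, and here length took away less. Cholesterol and fatty acid synthesis had 27 of 38 members below 0, with a median of -0.16, and of -0.20 with the trend taken off. Mvk, mevalonate kinase, had 2218 counts in shNC and 1117 in shFAK, at -0.84 (-0.98 to -0.70), and was the 1 member that met the 1.5-fold rule. Ribosome biogenesis and polyamine synthesis had 38 of 47 below 0, with a median of -0.21, and of -0.18 with the trend taken off, and Fbl, the nucleolar methyltransferase fibrillarin, had 14674 and 8418 counts, at -0.65. DNA replication had a median of -0.16 over 50 genes, with Mcm3, a subunit of the replicative helicase, at -0.48, and mitosis one of -0.01, which was 0.08 with scaling by library size alone. No gene of the replication or mitosis lists met the 1.5-fold rule in either direction.

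The lists for the cytoskeleton and for targets of YAP, a co-activator that responds to adhesion and stretch, were centred near 0. Of 41 kept actin and myosin genes, Ablim1 was the 1 that met the 2-fold rule, and the median was 0.02. Of 23 kept YAP and TEAD targets none met it, Nt5e, the ecto-5′-nucleotidase CD73, was at 0.99, Amotl1, a junction protein that binds YAP, at 0.89 and the matricellular protein gene Cyr61 at -0.58, with a median of 0.07. Redox enzymes had a median of -0.13 over 40 genes, and of 0.01 with the trend taken off, with Selenop, a selenium carrier, at 0.86 and Gclc, of glutathione synthesis, at 0.73 on 3282 and 4919 counts. Among 36 kept genes of the integrated stress response the cystine transporter Slc7a11 was at 0.82 and Aldh1l2, a mitochondrial folate enzyme, at 1.02, with a median of -0.10. With the trend taken off, Slc7a11 was at 0.48 and Aldh1l2 at 0.85. Of 15 mitochondrially encoded genes, mt-Co2 and mt-Atp6 met the 1.5-fold rule as higher, each at 0.67, and mt-Co3 met it as lower, at -1.25, and 9 of the 15 have near-identical annotated copies.

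**Figure D3:**
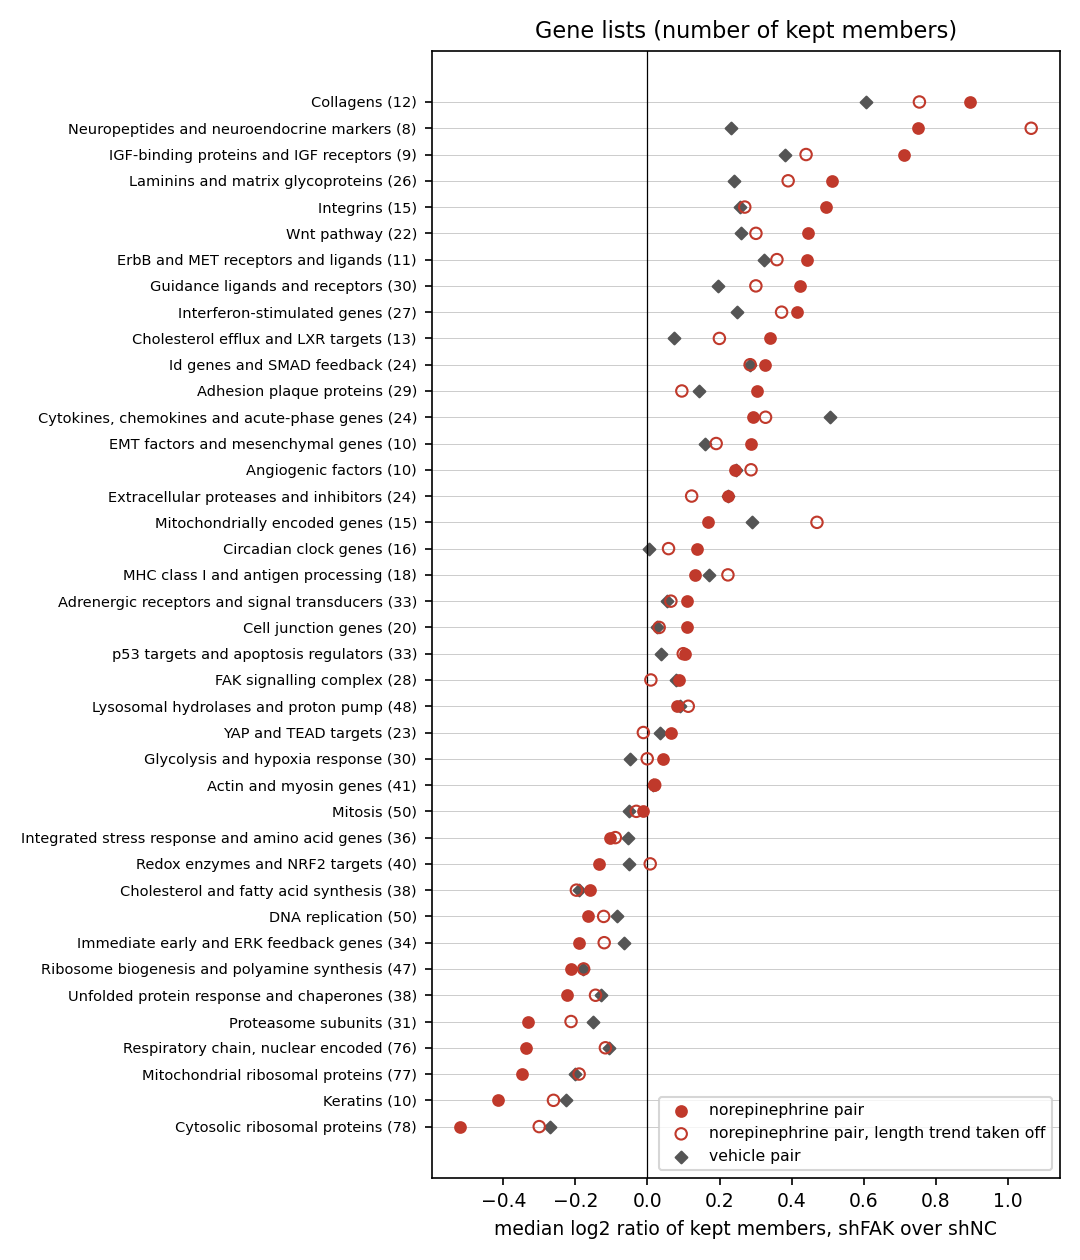
Rows are gene lists with at least 8 kept members, and points give their median log2 ratio of shFAK over shNC in the norepinephrine pair (filled red), the same with the length trend taken off (open red) and in the vehicle pair (grey). Collagens stand at 0.90 and cytosolic ribosomal proteins at -0.52, and for most lists far from 0 the open and grey points lie nearer to 0 than the filled ones.

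Ratios rose with gene length across genes. The Spearman correlation of the log2 ratio with the length in the deposited table was 0.47 across 12162 genes of the norepinephrine pair and 0.33 in the vehicle pair, as a description across genes, which are not replicates. When genes were divided by length into 10 bins of about equal size, medians went from -0.35 in the bin of the shortest genes (57 to 1217 bases) to 0.34 in that of the longest (9330 to 123179 bases), and from -0.19 to 0.16 in the vehicle pair for the same bins. Of the 78 genes that met the 2-fold rule as lower, 51 were in the shortest bin, and of the 319 higher genes 49 were in the longest. With the trend taken off, the correlation was 0.02, and 259 of the higher and 37 of the lower genes met the 2-fold rule still. The lower group was also rich in copied sequence: 41 of the 78 were processed pseudogenes, and 51 had a near-identical annotated copy. Among all 12162 genes kept, 601 were processed pseudogenes and 1670 had such a copy. The part of RNA quality and library preparation in this trend was not tested.

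**Figure D4:**
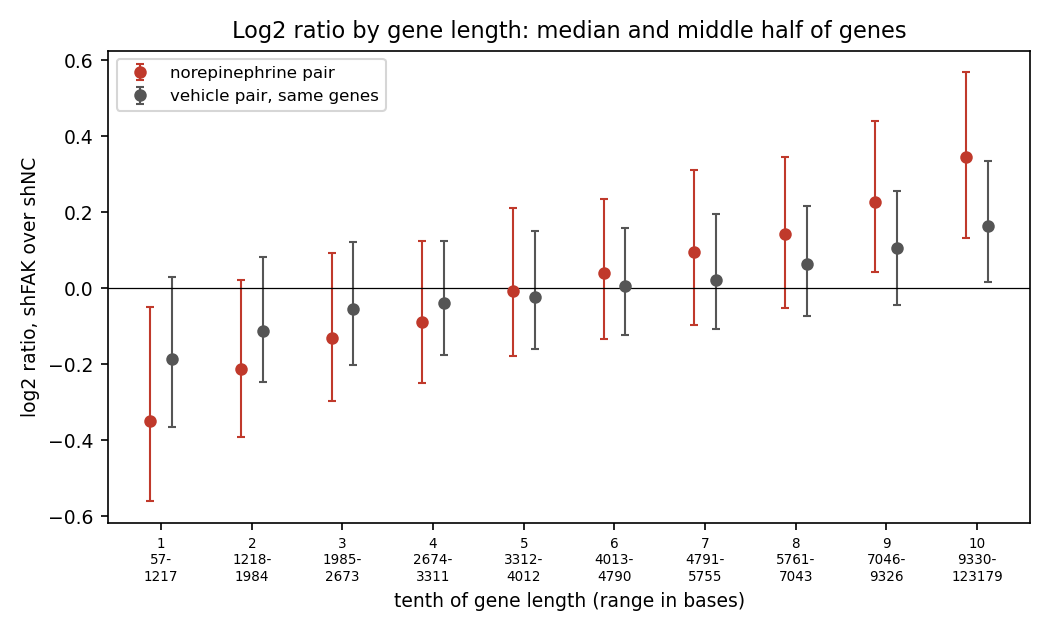
Points are median log2 ratios of shFAK over shNC in 10 bins of gene length, with bars from the lower to the upper quartile of genes, for the norepinephrine pair (red) and the vehicle pair (grey). The red medians climb from -0.35 to 0.34 and the grey ones from -0.19 to 0.16.

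The vehicle pair shares no library with the norepinephrine pair, and gives the hairpin ratio of the same 2 lines without norepinephrine. A lasting difference between the lines, of whatever origin, would enter both pairs. In the vehicle pair 171 of 12060 kept genes met the 2-fold rule as higher (1.42%) and 54 as lower (0.448%). Across 9876 genes with a mean of at least 5 CPM the ratios of the pairs had a Spearman correlation of 0.81, and of 0.77 with the length trend taken off in both, while across the 2286 genes below 5 CPM it was 0.48. All 80 protein-coding genes that were higher by the 2-fold rule at 5 CPM or more had vehicle ratios above 0, and 41 of them met the 2-fold rule there too. Their median log2 ratio was 1.22 under norepinephrine and 1.02 under vehicle, and for none of the 80 did the difference between the pairs meet its rule, a difference of at least 1 with a 99% interval that left out 0. The genes were chosen by their norepinephrine ratio, so a lower median in the other pair is in part fixed by that choice.

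Genes with few counts behaved differently. Of the 231 higher genes below 5 CPM, 51 met the 2-fold rule under vehicle, and 61 had a difference between the pairs that met its rule. Below 2 CPM, 48 of the 178 higher genes had a vehicle ratio at or below 0. In the shFAK norepinephrine library 23121 genes had a count, against 20442 to 21678 in the others. It also held 119 genes with at least 8 counts and at most 2 in each other library, 111 of them protein-coding, where the others held 4 to 9. The highest count among these 119 was 23, below the level filter, so none of them could be called by the 2-fold rule. Their median transcript GC content was 57.2%, beside 50.3% for kept protein-coding genes. Examples among the kept genes, chosen after their values were seen, are the unconventional myosin Myo15b, with 3 counts in shNC and 63 in shFAK under norepinephrine but 13 and 5 under vehicle, and Loxl1, a lysyl oxidase of elastic fibres, with 4 and 41 against 5 and 1. The non-coding Gm26917 is not a gene with few counts, at a mean of 930 CPM, and has a transcript GC content of 69.1%. It had 11241 and 34565 counts under norepinephrine and 10485 and 9091 under vehicle, and the source of these reads was not tested. The part of this library in the low-level ratios was not tested.

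**Figure D5:**
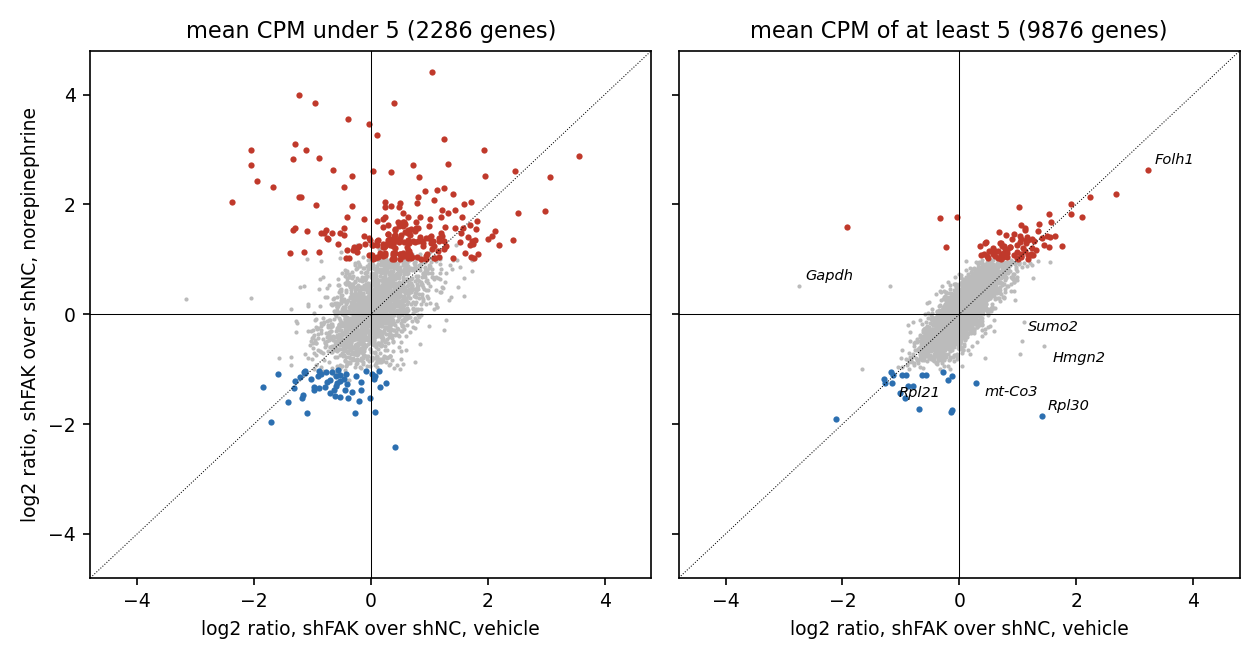
Each point is a kept gene, with its log2 ratio of shFAK over shNC in vehicle on the horizontal axis and in norepinephrine on the vertical axis, for 2286 genes below 5 CPM (left) and 9876 genes at 5 CPM or more (right); red and blue mark genes higher and lower by the 2-fold rule under norepinephrine, and the dotted line marks equal ratios. On the right most points follow the dotted line, with Gapdh and Rpl30 far from it, and on the left many red points lie near a vehicle ratio of 0.

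Across 12351 genes with at least 1 CPM in any of the 4 libraries, the difference between the pairs met its rule with a positive sign for 83 genes (0.672%) and with a negative sign for 30 (0.243%). Among protein-coding genes with a mean of at least 5 CPM over the 4 libraries, 1 was positive and 6 were negative, and all 7 have near-identical annotated copies. Of the 12162 genes of any biotype kept in the norepinephrine pair, 1670 have such a copy. Gapdh, a glycolytic enzyme, had 6186 counts in shNC and 7968 in shFAK under norepinephrine but 9948 and 1328 under vehicle, a difference of 3.26 (3.13 to 3.39). Rpl30, a ribosomal protein, had 3849 and 961 counts under norepinephrine and 1342 and 3198 under vehicle, a difference of -3.26 (-3.44 to -3.08). The chromatin protein gene Hmgn2, the dynein light chain gene Dynlt1c, the small ubiquitin-like modifier gene Sumo2, the mitochondrially encoded mt-Co3 and Rpl21 had differences of -2.02, -1.76, -1.55, -1.55 and -1.01. Annotated copies numbered 87 for Gapdh, 41 for Rpl21, 12 for Rpl30, 10 for Sumo2, 3 for Dynlt1c and 1 each for Hmgn2 and mt-Co3. How reads that fit several copies were counted was not given in the sources used here, which leaves the counts of these genes uncertain.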

How the data were processed

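The authors deposited raw counts of reads for 52636 genes, with each gene's coordinates, length and biotype. The submitters' processing notes name HISAT2 (2.0.5), featureCounts (1.5.0-p3) and the build mm10; the annotation release, strand setting and handling of reads with several hits are not given in the sources used here. Per the labels' protocols, Trizol RNA was made into libraries with a NEBNext Ultra kit, whose reads carry no strand information. Columns were matched to samples by title, and each of the 4 groups had 1 library, of 23410486 to 29948640 counts.

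From the deposited counts, TMM factors were computed with edgeR 4.0.16 in R 4.3.3 over genes with at least 1 CPM in any library, and this level filter used total counts. Ratios used a prior count of 2 and intervals were exact 99% Clopper-Pearson intervals (SciPy 1.17.1). Reads were amplified and carry no molecular identifiers, so the intervals cover counting error only. The difference between pairs had a 99% interval computed on the log scale with a normal approximation. The length trend was a spline with 6 knots on log2 gene length. No test was made and no p-value is given, since 1 library a group shows no spread between cultures. The computations were tested on simulated data.

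Copies were other annotated genes of 95% identity or more over 100 or more matching bases that made up 25% of the transcript or 500 bases, found with minimap2 2.31-r1302 in GENCODE M21 transcripts. Of the gene identifiers, 52403 were found in GENCODE M21, 95.2% of them at identical coordinates. A GC value was available for 99.9% of kept genes. Promoters came from RefSeq (GRCm38.p6, 32851 entries), matched by symbol. The 11 motifs searched on both strands, chosen after the ratios were seen, were the interferon-stimulated response element as GAAA, any 2 bases and GAAA (3.44% of all promoters), the NF-kB site shown for Cxcl1 (0.0883%), the same with its 5th base open (0.411%), which includes the preceding one, GGGANTTCC (1.68%), TTCCNGGAA (1.15%), TCACNCCAC (1.24%), TGACGTCA (1.79%), CACGTG (7.15%), CATTCCA (4.29%), TGANTCA (7.81%) and AGGTCA repeated after any 4 bases (0.0152%).

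The pair and the 50 gene lists were chosen with earlier results of these data known. Named genes were Ptk2 and Ptk2b; in each direction, at most 15 protein-coding genes that met the 2-fold rule at a mean of 5 CPM or more, by size of the ratio; up to 4 members with the largest ratio in size of each list described, with a mean of at least 1 CPM; and, in each direction of the difference between pairs, at most 8 protein-coding genes at a mean of 5 CPM or more over the 4 libraries. Symbols of predicted genes were passed over. Not every list is described in the text. The plot of list medians shows those with at least 8 kept members, other than marker lists and 1 that is not reported here. Alternatives were other scalings (library size, DESeq2 1.42.0 size factors, upper-quartile factors), filters, prior counts and thresholds, protein-coding genes alone, trends taken off and copied genes left out.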

Additional observations from a re-analysis of the deposited data

Results flagged for a closer look

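In 6 genes with a near-identical annotated copy, the shFAK library lay on opposite sides of the shNC library in the 2 treatments, so that the log2 ratio had opposite signs, with counting intervals that left out 0 for the difference. The norepinephrine ratio minus the vehicle ratio was 3.26 for Gapdh, -3.26 for Rpl30, -2.02 for Hmgn2, -1.76 for Dynlt1c, -1.55 for Sumo2 and -1.55 for mt-Co3. With 1 library in each group, the difference was not tested over cultures. How reads that fit several copies were assigned was not given in the sources used here, and its part in these values was not tested.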

How the results depend on the processing

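The count of genes higher by the 2-fold rule, 319, was 583 with no filter, 105 with at least 5 CPM in a library, 88 with a mean of at least 5 CPM over the pair (an alternative chosen after seeing the data) and 998 by the 1.5-fold rule. The count of lower genes, 78, was 25 with at least 5 CPM in a library, 22 with a mean of at least 5 CPM, 28 for protein-coding genes, 39 after removal of the length trend, 38 after removal of length and GC, 27 without genes that have a copy and 389 by the 1.5-fold rule. The length correlation, 0.47, was 0.16 with no filter, 0.57 with at least 5 CPM in a library or on average (0.5662 and 0.5709), 0.50 for protein-coding genes, 0.43 without genes that have a copy, and 0.02 after removal of the length trend or of length and GC (0.0243 and 0.0239). Positive differences between the pairs, 83, were 149 with no filter, 10 with at least 5 CPM in a library, 6 with a mean of at least 5 CPM, 147 by the 1.5-fold rule and 138 with a 95% interval; negative ones, 30, were 13, 7, 84 and 62 under the last 4 of these, 19 with a prior count of 10, 19 for protein-coding genes and 13 without genes that have a copy. The cause of these shifts was not tested, beyond the fewer or added genes that a filter or threshold leaves. No gene that met the 2-fold rule changed sign under any of these settings among the genes named. With the length trend taken off, 65 of 193 named genes left their counting interval, 24 of 49 list medians moved by more than 0.1 and 5 medians changed sign; with library size alone 3 medians changed sign, with no filter 3 and without copied genes 2. Leaving out a replicate was not run, since each group has 1 library. No paired analysis was possible because each group has 1 sample and no replicate numbers are shared beyond it. Depth limits genes below about 5 CPM, where intervals of the named genes span more than a log2 unit.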
